A study of Mus musculus with 3 samples.

Results

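The cells described here are mature thymocytes on the CD4 side of T-cell development, taken from thymus cultures that were profiled by droplet-based single-cell RNA sequencing. They were chosen on measured values. A cell had to carry a T-cell receptor beta (TRB) chain, at least 2 unique molecular identifiers (UMIs, each marking 1 captured RNA molecule) of Klf2, S1pr1 and Ccr7 together, and at least 1 of Klf2 or S1pr1. It also needed at least 1 UMI of Cd4, Zbtb7b or Cd40lg, and no UMI of Rag1, Dntt, Klrd1, Cd8a or Cd8b1. This rule kept 171 of 4091 TRB-positive cells, among 9349 cells that carried a single hashtag. They made up 4.18% of the TRB-positive cells (95% exact Clopper-Pearson interval 3.59 to 4.84).

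Organoid reaggregate fetal thymic organ cultures (ORFTOCs) were compared with fetal thymic organ cultures (FTOCs), both from wild-type C57BL/6J mice, untreated and on culture day 13. An ORFTOC held thymic epithelial cells (TECs) grown as organoids from fetal mouse thymus, EpCAM-depleted cells of younger fetal thymi, which brought the T-cell progenitors, and mouse embryonic fibroblasts (MEFs). An FTOC was an intact fetal thymic lobe in the same medium. In each group 2 cultures were mixed and stained with a hashtag, an antibody carrying a sequence barcode, and both groups then ran in 1 lane. The cultures behind a hashtag cannot be told apart, so each pool counts as 1 sample, no difference could be tested, and all intervals cover counting error only.

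Thymocytes rearrange the TRB locus first and the T-cell receptor alpha (TRA) locus later, at the CD4 CD8 double-positive stage, where Rag1 and Rag2 are active. Cells whose receptor is positively selected stop recombining, keep CD4 or CD8, and move to the medulla under Ccr7. The transcription factor ThPOK, encoded by Zbtb7b, directs the CD4 side, and Runx3 the CD8 side. Late maturation brings Klf2, S1pr1, which allows exit from the thymus, higher major histocompatibility complex (MHC) class I and interferon-induced genes.

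The TRB junctions that recurred among these cells are shown first, because TRB chains were repeated in a larger share in ORFTOC than in FTOC. Each runs from the conserved cysteine codon to the conserved phenylalanine codon. Capitals mark bases that match neither the V nor the J germline segment (D bases and added bases). The TRB locus lies on chromosome 6, from 40868163 to 41535386, and the TRA locus on chromosome 14, from 52665385 to 54461663 (build GRCm39, GENCODE annotation). A junction runs from the V exon into the J exon, both coding. For the first chain below, Trbv16 lies at 41128674 to 41129164 and Trbj1-1 at 41510798 to 41510845 of chromosome 6, on the plus strand. The first 4 chains were found in 2 mature CD4-side cells each, all in ORFTOC.
TRBV16-TRBJ1-1: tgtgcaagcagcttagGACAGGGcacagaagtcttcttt
TRBV5-TRBJ2-7: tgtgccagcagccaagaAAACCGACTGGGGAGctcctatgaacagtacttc
TRBV3-TRBJ1-2: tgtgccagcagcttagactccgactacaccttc
TRBV3-TRBJ2-7: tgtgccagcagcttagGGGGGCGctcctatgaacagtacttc
TRBV1-TRBJ2-7: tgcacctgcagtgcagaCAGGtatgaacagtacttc
TRBV20-TRBJ2-5: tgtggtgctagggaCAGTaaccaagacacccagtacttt
The last 2 were each in 1 mature CD4-side cell and in other cells of the same pool (ORFTOC and FTOC, in this order), and they are shown because a pair of cells also shared its TRA chain. TRBV3-TRBJ1-2 has no capitals, since its V and J parts meet directly.

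Of the 171 cells, 98 came from ORFTOC and 73 from FTOC. They were 5.19% (4.24 to 6.29) of the 1887 TRB-positive ORFTOC cells and 3.31% (2.61 to 4.15) of the 2204 TRB-positive FTOC cells. The direction between pools turned when the rule was applied to cells thinned to 1000 UMIs, where 31 cells were left and 41.94% of them came from ORFTOC (24.55 to 60.92), against 57.3% of the 171. With at least 95% of hashtag UMIs from 1 hashtag it was 72.66%. The median hashtag share was 99.6% in ORFTOC and 94.9% in FTOC mature CD4-side cells, so that limit removes more FTOC cells. As a share of all single-hashtag cells the pools were close, at 1.87% of 5237 and 1.78% of 4112. The larger ORFTOC share of TRB-positive cells thus went with fewer TRB-positive cells in that pool. The median depth was 7588 UMIs per cell in ORFTOC (2266 to 37912) and 6380 in FTOC (1581 to 31861).

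Mature CD8-side cells were found by the same rule with Cd8a or Cd8b1 in place of the CD4-side genes. There were 133 in ORFTOC and 69 in FTOC, at median depths of 9050 and 6645 UMIs. CD4-side cells were therefore 42.4% (36.0 to 49.1) of the 231 one-sided mature cells in ORFTOC and 51.4% (42.9 to 59.9) of 142 in FTOC, and the intervals overlapped. A further 126 mature cells had no UMI of any of these 5 coreceptor and lineage genes, and 36 had UMIs of both sides.

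**Figure D1:**
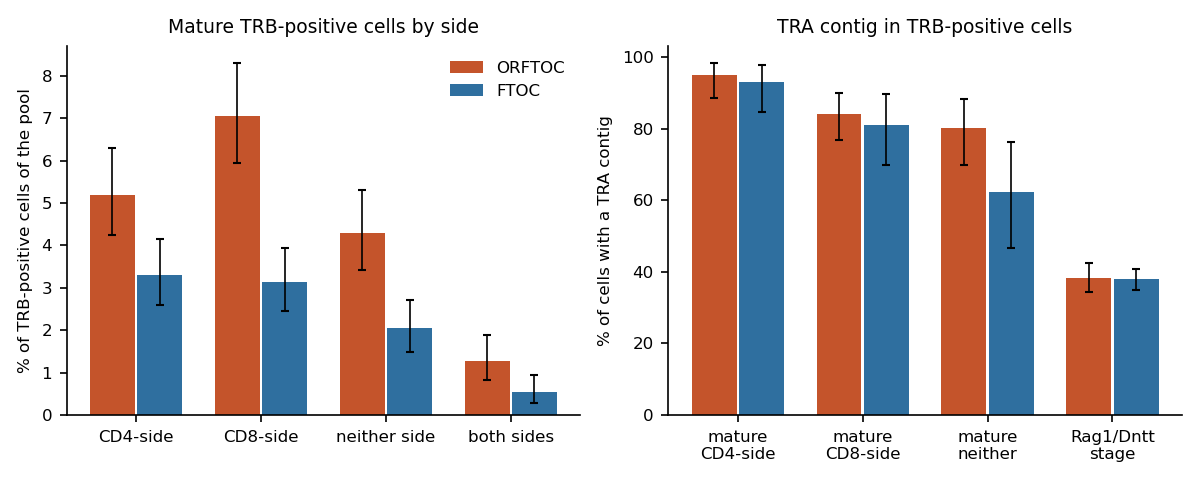
Bars give cells of each mature class as a percent of TRB-positive cells of the ORFTOC or FTOC pool (left), and the percent of cells with a TRA chain in mature CD4-side cells, CD8-side cells and cells of neither side and at the Rag1 or Dntt stage (right), with 95% exact intervals for counting error. Mature CD4-side cells were 5.19% of TRB-positive cells in ORFTOC and 3.31% in FTOC, and 94.9% and 93.2% of them had a TRA chain.

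The genes of the rule describe the choice and are no finding. Klf2 was detected in 95.3% of the cells, Ccr7, the receptor for medullary chemokines, in 90.6%, S1pr1 in 73.1%, Cd4 in 72.5% and Zbtb7b in 31.0%. Klf2 stood at 731 UMIs per 1000000 UMIs (CPM) in ORFTOC and 842 in FTOC, Ccr7 at 419 and 553, and Cd4 at 128 and 136. The CD4-side evidence was thin in each cell: 89 cells had exactly 1 UMI of the 3 genes and 82 had more, up to 6. In 87 cells that evidence was Cd4 alone, in 31 Zbtb7b alone and in 15 Cd40lg alone. The maturity genes were far from their threshold, with a median of 12 UMIs (2 to 42).

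Just inside and outside the thresholds, 2 cells had exactly 2 maturity UMIs and 5 otherwise fitting cells had 1. A CD8-side count of 1 UMI kept 15 cells out and more than 1 kept out 21, 1 UMI of Rag1 or Dntt kept out 6 and more than 1 kept out 2, and Klrd1 kept out 13. The largest neighbouring set was the 126 mature cells with no CD4-side UMI. Izumo1r stood at 136 CPM in cells with 1 CD4-side UMI, 125 CPM in cells with more, and 109 CPM in those 126 cells. Nkg7, a cytotoxic granule gene, was at 29.4, 9.78 and 92.6 CPM in the same order. The set without CD4-side UMIs thus held Izumo1r close to the level of the chosen cells, together with more Nkg7.

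Gene expression was compared on UMIs summed over the cells of a group. Beside the other TRB-positive cells, 7.66% of 13535 tested genes were at least 2-fold higher in the mature CD4-side cells and 8.5% at least 2-fold lower. Beside mature CD8-side cells the shares were 6.32% higher and 3.31% lower of 9163 genes. The balance of directions depended on the processing. Against other TRB-positive cells 47.42% of the genes past 2-fold were higher, 81.79% after subtraction of the profile of near-empty droplets, 85.89% after thinning to 1000 UMIs and 26.66% with a minimum of 50 UMIs. Against CD8-side cells 65.65% were higher, 48.52% without cells that carried markers of other cell types and 46.74% after thinning. The sums over all cells of these groups shared the lane but not the depth, since the other TRB-positive cells had medians of 5915 UMIs in ORFTOC and 2173 in FTOC. The median log2 ratio over all genes against them was −0.16, and it moved to −0.29 when every cell had equal weight and to 0.18 after that subtraction. Genes were placed by lists, and because many of the most extreme ratios came from 1 to 3 cells, genes detected in at least 20% of the cells are described as well. Izumo1r, Tnfrsf4, Gpr83, St8sia6, Itm2a, Igfbp4, Tesc, Gm8369, Il6ra, Ckb, Tspan32, Inpp4b, Cytip and Lfng were chosen in this way or by eye, after their values had been seen.

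Izumo1r, which encodes folate receptor 4, was a gene of the CD4 side that the rule had not used. It stood at 141 CPM in ORFTOC and 111 CPM in FTOC mature CD4-side cells. Mature CD8-side cells had 19.5 and 17.5 CPM, and the other TRB-positive cells 18.9 and 13.5 CPM. Both pools of CD4-side cells were thus above both pools of either comparison group. The ratio was 6.90-fold over CD8-side cells (4.84 to 10.1) and 7.77-fold over other TRB-positive cells (6.54 to 9.20). Izumo1r was detected in 42.7% of CD4-side and 14.9% of CD8-side cells, against 0.0453% of 2207 epithelial cells, which should lack it and had medians of 13094 UMIs in ORFTOC and 12192.5 in FTOC. After each cell was thinned to 1000 UMIs the shares were 9.94% and 1.98%.

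Tnfrsf4, the costimulatory receptor OX40, had a wider gap from the CD8 side. Its levels were 102 CPM in ORFTOC and 57.4 CPM in FTOC, against 2.16 CPM and 0 UMIs in CD8-side cells. The ratio over CD8-side cells was 55.9-fold (18.7 to 274), and Tnfrsf4 was detected in 34.5% of CD4-side cells and 1.49% of CD8-side cells. Epithelial cells had it in 2.72%.

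St8sia6, a sialyltransferase gene, was absent from the counts of all 202 CD8-side cells. It was at 25.2 CPM in ORFTOC and 27.8 CPM in FTOC CD4-side cells, and 19.9% of them had a UMI. With a floor of 3 UMIs over the CD8-side group it was at least 17.1-fold higher. Gpr83, a G-protein-coupled receptor gene that regulatory T cells also express, was at 62.5 CPM in ORFTOC and 13.9 CPM in FTOC, and at 5.05 and 3.49 CPM in CD8-side cells. Izumo1r, Tnfrsf4, St8sia6 and Gpr83 were put together after they had been seen to be low in CD8-side cells. Their contrast with that class thus follows from the choice. At least 1 of these 4 genes was detected in 67.8% of the CD4-side cells (60.3 to 74.8), in 71.4% in ORFTOC and 63.0% in FTOC. The shares were 51.6% (42.5 to 60.6) in mature cells of neither side, 17.3% in CD8-side cells and 2.21% in 1675 resting cells of the recombining stage. These Rag1 or Dntt cells had at least 2 UMIs of Rag1 and Dntt together, at least 1 of Cd8a or Cd8b1 and 0 of Mki67, Top2a and Cdk1, and medians of 1870 UMIs in ORFTOC and 1717 in FTOC.

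**Figure D2:**
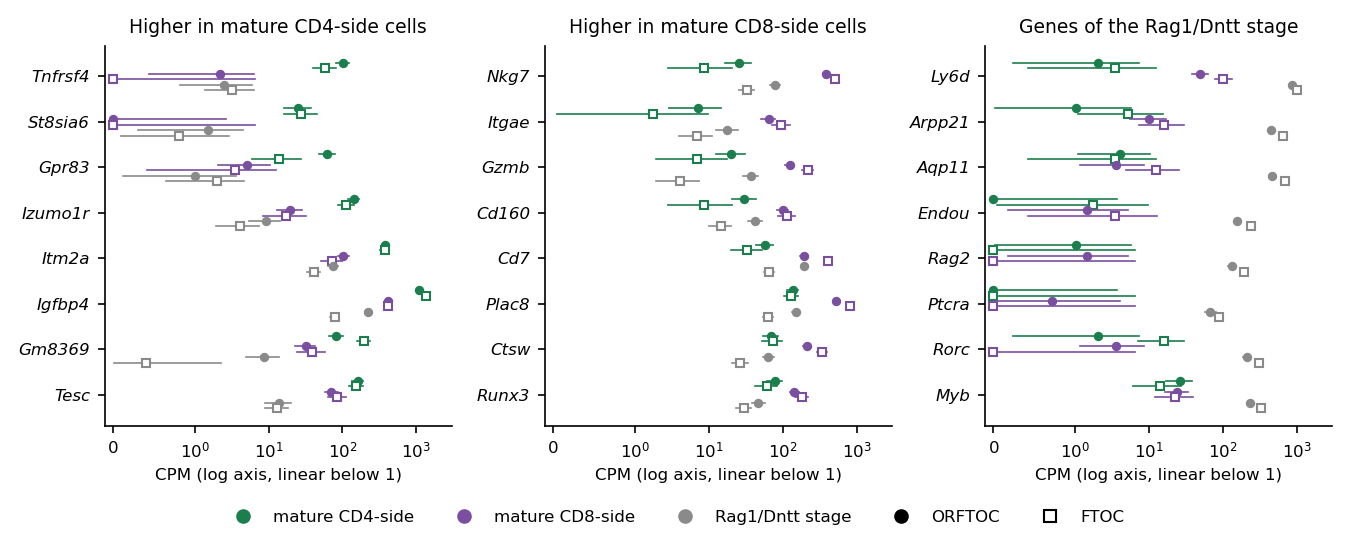
CPM on a log axis that is linear below 1, for genes higher on the CD4 side, higher on the CD8 side, or of the Rag1 or Dntt stage. Circles are ORFTOC and squares FTOC, colours give the class, and lines are 95% Poisson intervals. Izumo1r and Tnfrsf4 lie higher in CD4-side than in CD8-side cells of both pools, and Nkg7 and Itgae lie lower.

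The CD4 helper list, chosen like the other lists with earlier results of these data known, was less uniform than these examples. Against CD8-side cells 3 of its 17 tested genes were at least 2-fold higher (St8sia6, Izumo1r and Runx1) and 0 lower, with a median log2 ratio of 0.54 beside −0.02 over all genes. Gata3, a CD4-lineage transcription factor, was at 57.5 CPM in ORFTOC and 43.5 CPM in FTOC, against 37.5 and 19.2 CPM in CD8-side cells, a ratio of 1.63-fold (1.16 to 2.30). Tcf7, which encodes TCF1, was at 462 and 585 CPM, against 318 and 354 CPM. Against all other TRB-positive cells the list had 2 genes higher and 3 lower, Myb, Bcl6 and Trat1, with a median of −0.20, which became −0.49 with equal weight for every cell and 0.43 after subtraction of the near-empty droplet profile.

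Genes of costimulation and NF-kB signalling were higher than on the CD8 side for 6 of 20 tested genes, and 0 were lower. Besides Tnfrsf4 these were Bcl2a1d, Ctla4, Cd28, Icos and Gadd45b. Cd28, the main costimulatory receptor, was at 167 CPM in ORFTOC and 127 CPM in FTOC, against 67.8 and 82.0 CPM, a ratio of 2.12-fold (1.71 to 2.63). Ctla4, the inhibitory receptor for the same ligands, was at 36.3 and 69.6 CPM, against 18.0 and 27.9 CPM. Icos, a further costimulatory receptor, was at 67.6 and 45.2 CPM, against 31.0 and 20.9 CPM. For Cd28, Icos and Ctla4 the CD4-side value was the higher in each pool, and between pools of the CD4 side Ctla4 and Icos went in opposite directions.

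The list of semi-mature and positive selection genes had 7 of 22 tested genes at least 2-fold above the CD8 side and 1 below, with a median log2 ratio of 0.56. Itm2a, a membrane protein induced during positive selection, was at 380 CPM in ORFTOC and 374 CPM in FTOC, against 103 and 71.6 CPM on the CD8 side and 104 and 81.7 CPM in other TRB-positive cells. Nr4a1, an immediate target of T-cell receptor signalling, was at 195 and 172 CPM, against 77.2 and 83.8 CPM on the CD8 side. Cd5, which is set by the strength of receptor signalling, was at 216 and 291 CPM, against 112 and 140 CPM. These 3 genes stood higher in CD4-side cells of both pools, by 4.02-fold (3.41 to 4.78), 2.36-fold (1.93 to 2.88) and 2.03-fold (1.72 to 2.40). Ikzf2, which encodes Helios, was the member of the list that was lower, at 97.9 and 59.2 CPM against 158 and 202 CPM. Against all other TRB-positive cells the median of the list was 0.11, −0.40 with equal weight for every cell and 0.46 after subtraction of the near-empty droplet profile. With equal weight, 3 genes of the list were at least 2-fold above the CD8 side and 4 below.

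Igfbp4, an IGF-binding protein gene, was the most abundant of these genes and had a UMI in 83.0% of the cells. It stood at 1087 CPM in ORFTOC and 1352 CPM in FTOC, against 408 and 419 CPM on the CD8 side and 262 and 162 CPM in other TRB-positive cells. Epithelial cells also had it, in 59.6%. Tesc was at 160 and 153 CPM, against 70.7 and 85.5 CPM on the CD8 side, and Il6ra, the interleukin 6 receptor, at 68.6 and 66.1 CPM, against 31.0 and 14.0 CPM. Ckb, a creatine kinase gene, was at 289 and 193 CPM, against 80.8 and 96.0 CPM.

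Cytotoxic genes were lower almost throughout. Of 12 tested genes of the CD8 cytotoxic list, 11 were at least 2-fold lower than in CD8-side cells and 1 was higher, with a median log2 ratio of −2.96. The choice of cells without Cd8a and Cd8b1 separates the groups, so the count describes them. Nkg7 stood at 25.2 CPM in ORFTOC and 8.70 CPM in FTOC, against 380 and 508 CPM, and was detected in 5.85% of CD4-side and 72.8% of CD8-side cells. Itgae, which encodes the CD103 integrin, was at 7.06 and 1.74 CPM, against 64.2 and 96.0 CPM. Runx3, the CD8-lineage factor, differed less, at 78.7 and 60.9 CPM against 143 and 182 CPM (2.14-fold lower, 1.72 to 2.68). Eomes, a cytotoxic T-cell factor, had 0 UMIs in CD4-side cells, which was at least 7.19-fold lower. The exception was Dapl1, at 40.4 and 115 CPM against 6.49 and 5.24 CPM, 11.1-fold higher (6.07 to 22.1).

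Genes of the egress list, beyond those the rule used, differed less from the CD8 side than from the other cells. Against other TRB-positive cells 8 of 25 tested genes were at least 2-fold higher and 0 lower, with a median log2 ratio of 0.84, and against CD8-side cells 1 was higher and 0 lower, with a median of 0.36. The summed level of the list was 10405 CPM, against 5559 CPM in other TRB-positive cells. Ms4a4b, a membrane gene of mature T cells, was at 998 CPM in ORFTOC and 1362 CPM in FTOC, 1013 and 1162 CPM on the CD8 side, and 481 and 532 CPM in other TRB-positive cells. Gimap3, which supports lymphocyte survival, was at 201 and 289 CPM, against 113 and 143 CPM and then 67.3 and 75.9 CPM. Il7r, the interleukin 7 receptor, was at 73.6 and 130 CPM, and the other TRB-positive cells had 61.1 and 66.3 CPM. Ly6c1 was the gene of the list past 2-fold above the CD8 side on plain sums, at 47.4 and 230 CPM against 7.21 and 24.4 CPM, and 2 genes were past it with equal weight for every cell.

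Genes of the double-positive stage were lower for 14 of 20 tested genes against other TRB-positive cells, and 0 were higher, with a median log2 ratio of −1.91. The rule excluded Rag1 and Dntt and so favours this direction. Ptcra, which encodes the pre-TCR alpha chain, had 0 UMIs, at least 25.1-fold lower than its 43.8 CPM in ORFTOC and 54.6 CPM in FTOC among other TRB-positive cells. Ly6d was at 2.02 and 3.48 CPM against 404 and 590 CPM. Arpp21 was at 1.01 and 5.22 CPM against 166 and 288 CPM. Ccr9, the gut and thymus homing receptor, was less reduced, at 120 and 66.1 CPM against 203 and 388 CPM. Thy1, a surface glycoprotein of thymocytes, was at 176 and 228 CPM against 810 and 1033 CPM, and was also lower than on the CD8 side (535 and 492 CPM).

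**Figure D3:**
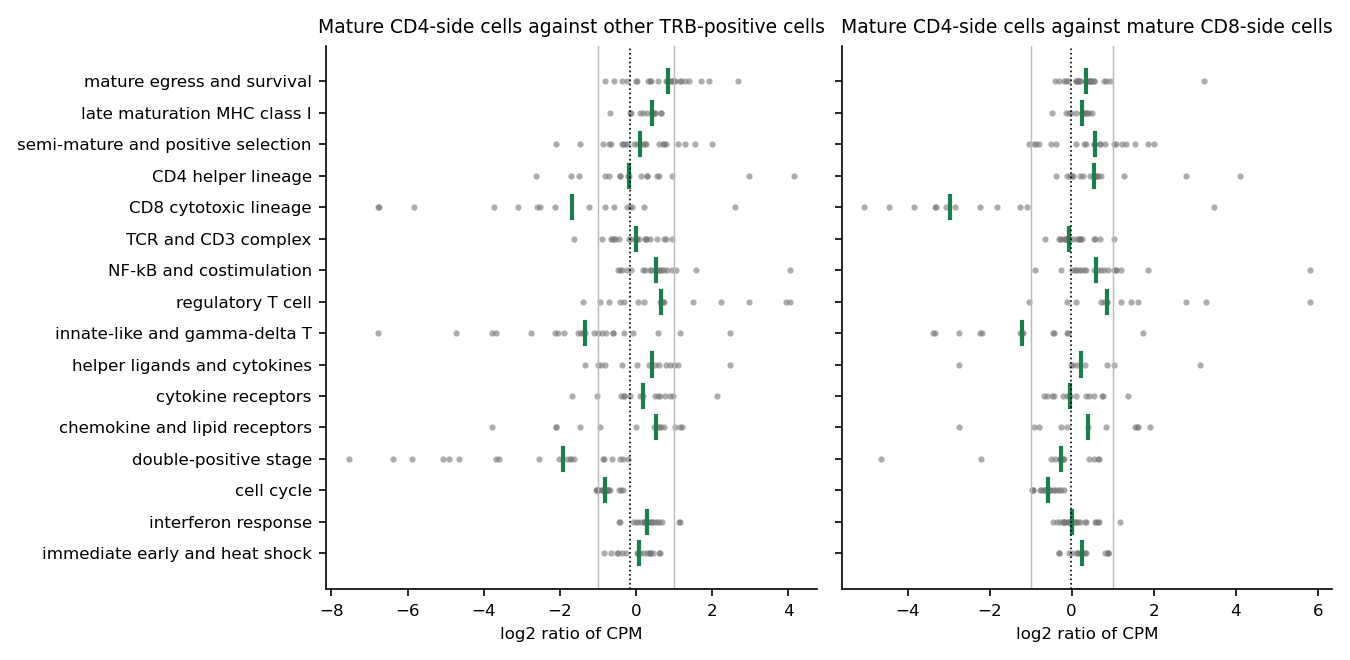
Log2 ratio of CPM for each tested gene of a list (grey points) and the median of the list (green bar), in mature CD4-side cells against other TRB-positive cells (left) and against mature CD8-side cells (right). The dotted line is the median over all genes (−0.16 and −0.02) and grey lines mark 2-fold. The lowest medians are the double-positive stage on the left (−1.91) and the CD8 cytotoxic list on the right (−2.96).

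The list of regulatory T-cell genes had 6 of 13 tested genes at least 2-fold higher than on the CD8 side and 1 lower. Its defining gene Foxp3 had 7 UMIs in 5 cells, 2.92% (0.956 to 6.69), against 2.48% on the CD8 side and 0.77% of epithelial cells. No Foxp3-positive cell had a UMI of Il2ra, the interleukin 2 receptor alpha chain, and 2 had Ctla4. The higher genes of the list were Tnfrsf4, Gpr83, Izumo1r, Nrp1, Il2ra and Ctla4, of which Tnfrsf4, Izumo1r and Ctla4 stand on the other lists as well, and the ratio of Il2ra turned to −0.92 on the log2 scale after thinning to 1000 UMIs. Innate-like and gamma-delta T-cell genes were lower for 8 of 13 and higher for 1. Trdc, the delta constant gene, had 3 UMIs in 1 cell, and Zbtb16, which encodes PLZF, had 16 UMIs in 3 cells, 11 of them in 1 cell.

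The remaining lists differed less from the CD8 side. Over all tested genes 6.32% were at least 2-fold higher than there and 3.31% at least 2-fold lower, so 1 of 21 or 1 of 15 genes higher is near the share over all genes. Of 21 tested genes of the T-cell receptor and CD3 complex, 1 was at least 2-fold higher and 0 lower, with a median log2 ratio of −0.06. Cytokine receptors had 1 of 15 higher, Il6ra, and 0 lower. Chemokine and lipid receptors had 4 of 11 higher and 1 lower. The higher ones were Gpr183, an oxysterol receptor that guides lymphocytes, and the chemokine receptors Ccr8, Ccr2 and Ccr4, and the lower one was Cxcr3, a receptor for interferon-induced chemokines. Helper ligands and cytokines had 2 of 8 higher, Il13 and Tnfsf11, and 1 lower, Csf2. Immediate early and heat shock genes had 0 of 16 in either direction. Against other TRB-positive cells, Ifngr1, the interferon gamma receptor, was lower, at 115 CPM in ORFTOC and 188 CPM in FTOC against 387 and 561 CPM.

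Proliferation varied within the group. Cell cycle genes had 0 of 18 past 2-fold against CD8-side cells, with all 18 below 0, and 3 at least 2-fold lower against other TRB-positive cells, which became 0 with equal weight for every cell and 12 after subtraction of the near-empty droplet profile. Mki67, Top2a and Cdk1 had 0 UMIs in 116 cells (67.8%) and at least 5 in 30 cells (17.5%), 15 in each pool. On the CD8 side 29.7% had at least 5, 35.3% in ORFTOC and 18.8% in FTOC. In the 30 cells Ccr7 was at 334 CPM and S1pr1 at 136 CPM, and in the 116 cells they were at 554 and 274 CPM. Izumo1r was at 182 CPM in the former and 97.0 CPM in the latter, and Igfbp4 at 1291 and 1223 CPM. Ccr7 and S1pr1 were used by the rule, so their levels are a description. The median depth was 12200 UMIs in the 30 cells and 6128 in the 116 cells. The part of depth in this was not tested.

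The pools were then compared within the 171 cells. ORFTOC cells had 7.34% of 7101 tested genes at least 2-fold higher than FTOC cells and 3.25% at least 2-fold lower, and the median log2 ratio over all genes was 0.11. Genes of the CD4 side differed little: Izumo1r was 1.27-fold higher in ORFTOC (0.937 to 1.73), St8sia6 had 25.2 and 27.8 CPM, and of 16 tested genes of the CD4 helper list 0 were past 2-fold in either direction.

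MHC class I and interferon-response genes were lower in ORFTOC. All 13 tested genes of the MHC class I list had a log2 ratio below 0, with a median of −0.74, and 2 of them (H2-Q7 and Nlrc5) were at least 2-fold lower. H2-K1, a classical MHC class I chain, was at 1570 CPM in ORFTOC and 2786 CPM in FTOC, 1.77-fold lower (1.65 to 1.90). B2m, the shared light chain, was at 1444 and 2413 CPM, 1.67-fold lower (1.55 to 1.80). Nlrc5, the transactivator of these genes, was at 14.1 and 33.1 CPM, 2.34-fold lower (1.11 to 5.05). The chains, their partner and their transactivator therefore lay on the same side, and the counting intervals of the 3 ratios lay above 1.

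Of 24 tested interferon-response genes, 22 were below 0 with a median of −0.70, and 4 were at least 2-fold lower (Gbp2, Gbp7, Ly6a and Ifit3). Ly6a, the surface antigen Sca-1, was at 329 CPM in ORFTOC and 936 CPM in FTOC, 2.85-fold lower (2.48 to 3.28). Gbp2, a guanylate-binding protein gene, was at 42.4 and 158 CPM. Isg15 did not follow, at 482 and 480 CPM.

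Cell by cell, the summed MHC class I genes had a median of 6593 CPM in ORFTOC (1402 to 19445) and 10488 CPM in FTOC (4326 to 26811). The pools overlapped, but 8.16% of ORFTOC cells were above the FTOC median. Interferon genes had medians of 5994 CPM (782 to 24487) and 9787 CPM (1376 to 23540), and 25.5% of ORFTOC cells were above the FTOC median. On the CD8 side the median log2 ratio between pools was −0.24 for MHC class I and −0.78 for interferon genes, with all 24 below 0, and in the Rag1 or Dntt cells it was 0.36 for MHC class I. The difference between classes was not tested.

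**Figure D4:**
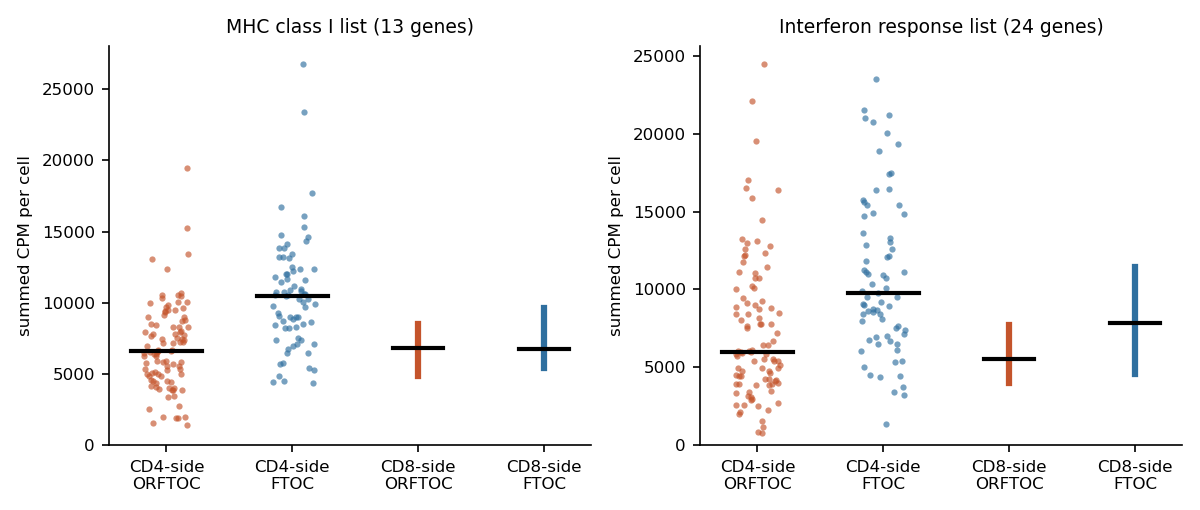
Summed MHC class I (left) and interferon-response genes (right) in CPM of each cell, for ORFTOC and FTOC. Each point is 1 mature CD4-side cell, black lines are medians, and the bars of the CD8 side span the quartiles. The MHC class I medians are 6593 in ORFTOC and 10488 in FTOC CD4-side cells, and the interferon medians 5994 and 9787.

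Sex-linked genes differed between the pools too. The sex of the embryos was not given in the sources used here. Of the FTOC cells, 55 of 73 had Xist UMIs and 0 had a UMI of a Y-linked gene. Of the ORFTOC cells, 29 had Xist without Y-linked UMIs, 37 had Y-linked genes without Xist, 4 had both and 28 had neither. Xist, the long non-coding RNA of the inactive X chromosome, was at 167 and 430 CPM. The summed MHC class I level was 6042 CPM in the Xist-only ORFTOC cells and 6383 CPM in the Y-linked-only ones, against 10483 CPM in FTOC, and the interferon genes were at 6650, 6659 and 10450 CPM. The FTOC sums cover all mature CD4-side cells of that pool and were not split by these genes. The ORFTOC cells of either kind came from the same pool, so their sums are a description only. No mature CD4-side FTOC cell had a Y-linked UMI, so Y-linked-only cells cannot be compared between pools. Of the 2131 other TRB-positive FTOC cells, 2 had Y-linked genes without Xist and 3 had both. The part of sex was not tested.

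Several other genes, not all of them on the egress list, had the same direction. Ly6c1 was at 47.4 CPM in ORFTOC and 230 CPM in FTOC, 4.84-fold lower (3.45 to 6.91). Gm8369 was at 82.7 and 193 CPM, and Ms4a4c at 56.5 and 136 CPM. Il7r was 1.77-fold lower (1.27 to 2.48) and Ltb, which encodes lymphotoxin beta, was at 595 and 981 CPM. Of 23 tested egress genes, 20 were below 0, with a median of −0.27, but 1 was past 2-fold, so the list differed less than MHC class I. Bcl2, Rasgrp2 and Cd27 were among the egress genes that went the other way. Their log2 ratios were 0.74, 0.55 and 0.48 among cells with fewer than 2 UMIs of other-cell markers.

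Several single genes were higher in ORFTOC, while the lists they stand on were mixed. The NF-kB and costimulation list had 1 of 20 genes at least 2-fold higher and 3 lower, with 12 below 0 and a median of −0.06. Ctla4, which stands on it, had the higher value in FTOC, and so did Cd5 of the semi-mature list. Gpr83 was 4.49-fold higher (2.14 to 10.9). Tnfrsf9, the costimulatory receptor 4-1BB, was at 34.3 CPM against 5.22 CPM, 6.57-fold higher (2.07 to 33.4), and Il2ra was at 23.2 against 5.22 CPM. Nr4a3, an immediate target of receptor signalling, was at 25.2 against 6.96 CPM. The semi-mature list as a whole had a median of 0.39, with 3 of 20 genes at least 2-fold higher (Cd24a, Egr2 and Nr4a3). Sox4, a factor of early thymocytes and epithelium, was at 199 against 88.7 CPM, and epithelial cells had it in 92.1%. Cd24a, which falls with maturation, was at 136 against 10.4 CPM, but its log2 ratio of 3.71 became 1.24 among cells with fewer than 2 UMIs of other-cell markers and turned to −0.93 after thinning to 1000 UMIs. Bcl2, the survival gene, was at 185 against 120 CPM, 1.54-fold higher (1.16 to 2.06).

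Markers of other cell types were present and moved with the pool. Epithelial marker genes summed to 1304 CPM in ORFTOC and 284 CPM in FTOC, with 13 and 11 of 14 genes detected and 0 in the median cell. Macrophage and dendritic genes summed to 2502 and 1211 CPM, with 12 and 9 of 17 genes detected, and mesenchymal, erythroid and parathyroid genes to 1102 and 108 CPM. NK and innate lymphoid genes summed to 312 and 214 CPM. B-cell genes summed to 81.7 and 143 CPM, while the defining genes Ms4a1 and Pax5 were at 0. At least 2 UMIs of Epcam, C1qa, C1qb, Lyz2 and Col1a1 were in 12 of the 98 ORFTOC cells (12.2%) and 7 of the 73 FTOC cells (9.59%). In the remaining 152 cells the median log2 ratio between pools was −0.79 for MHC class I and −0.78 for interferon genes, with 4 and 7 genes at least 2-fold lower.

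The T-cell receptor was not used beyond the presence of a TRB chain. Of the mature CD4-side cells, 94.2% had a TRA chain (89.5 to 97.2), 94.9% in ORFTOC and 93.2% in FTOC. The share was 83.2% on the CD8 side, 73.8% in mature cells of neither side, 45.1% in all other TRB-positive cells and 38.1% in the Rag1 or Dntt cells. Epithelial cells had a TRA chain in 0.710% and a TRB chain in 2.04% of 2253 cells, at a median of 12672 UMIs. A second TRA chain was present in 8 ORFTOC cells (8.16%) and 17 FTOC cells (23.3%), and a second TRB chain in 2.04% and 8.22%. On the CD8 side a second TRA chain was in 12.0% in ORFTOC and 8.70% in FTOC, the opposite direction, and a second TRB chain in 3.01% and 5.80%. These differences were not tested. Chains of the CD4-side cells rested on medians of 25 UMIs for TRB and 8 for TRA, against 15 and 4 in the Rag1 or Dntt cells. The median depth was 7125 UMIs in CD4-side cells and 8141 on the CD8 side. It was 3022 in other TRB-positive cells and 1763 in the Rag1 or Dntt cells. The part of depth in the TRA shares was not tested.

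The constant region genes, which checked identity, were Trac at 148 CPM in ORFTOC and 171 CPM in FTOC, Trbc1 at 153 and 143 CPM, and Trbc2 at 160 and 164 CPM. Trac was 1.48-fold higher than in other TRB-positive cells (1.29 to 1.69), and Trbc1 and Trbc2 were 1.56-fold and 1.87-fold lower.

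Repeated TRB chains, those whose V gene, J gene and junction recurred in another cell of the pool, were common in ORFTOC. They were 27 of 100 TRB chains of ORFTOC CD4-side cells (27.0%, 18.6 to 36.8) and 2 of 79 in FTOC (2.53%, 0.308 to 8.85). These intervals treat chains as independent, which repeated chains are not, and the difference between pools was not tested. The CD8 side had 20.4% and 2.74%, the Rag1 or Dntt cells 45.2% and 13.7%, and the remaining TRB-positive cells 48.3% and 11.1%. Mature cells of neither side had 25.3% in ORFTOC and 8.70% in FTOC (2.42 to 20.8). ORFTOC thus had the higher share in each of these classes. In each pool the mature classes had lower shares than the Rag1 or Dntt cells, but the FTOC interval for neither side covered 13.7%. The remaining TRB-positive cells were those outside the named classes and were not sorted by maturity.

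These chains made up 25 families, 23 of them in ORFTOC with 56 cells and at most 4 cells each. Only the 4 chains printed first were in 2 CD4-side cells. Families joined a CD4-side cell with a CD8-side cell in 2 cases, with a mature cell of neither side in 6, and with Rag1 or Dntt cells in 9. The TRBV16-TRBJ1-1 chain above was one that crossed sides, in 2 CD4-side cells and 1 CD8-side cell. In 18 families at least 2 cells had a TRA chain, and in 2 of these a TRA chain was shared, those of TRBV1-TRBJ2-7 and TRBV20-TRBJ2-5 above. TRA chains were repeated for 4 of 101 in ORFTOC and 1 of 85 in FTOC. Across pools, 26 TRB chains occurred in both, 0 of them in mature CD4-side cells.

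**Figure D5:**
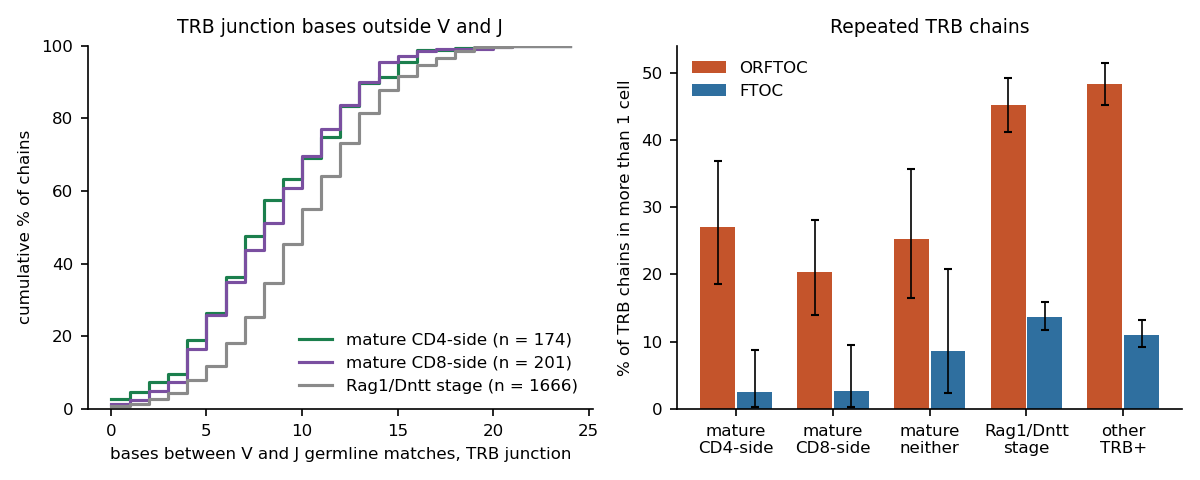
Cumulative percent of TRB chains by bases between the V and J germline parts, for 3 classes (left), and TRB chains found in more than 1 cell of the pool, as a percent of chains by class and pool with 95% exact intervals (right). The curve of the Rag1 or Dntt stage lies to the right of both mature classes. Repeated chains were 27.0% in ORFTOC and 2.53% in FTOC mature CD4-side cells, and each class shown had more in ORFTOC.

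Junctions of the mature cells were shorter than those of the Rag1 or Dntt cells. The rule excluded Dntt and the reference class was chosen on Rag1 and Dntt, so this contrast describes groups chosen on that gene. The TRB junctions held a mean of 8.25 bases between the V and J parts (SD 4.12 over 174 chains, 7.83 in ORFTOC and 8.80 in FTOC), against 8.43 on the CD8 side and 10.05 in the Rag1 or Dntt cells. The TRA junctions held 2.10 such bases (SD 1.96 over 182 chains), against 2.56 and 3.18. In 24.2% of TRA junctions (18.1 to 31.1) no base lay between V and J, against 20.1% and 11.6%. The remaining TRB-positive cells lay between the mature and the Rag1 or Dntt cells. They had means of 9.13 bases for TRB and 2.82 for TRA, and 18.4% of TRA junctions without a base.

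The most used TRBV genes were TRBV5 with 19 of 179 chains (10.6%, 6.51 to 16.1, against 7.72% in other TRB-positive cells), TRBV3 with 18 (10.1% against 6.01%), TRBV12-2+TRBV13-2 with 17 (9.50% against 9.36%), TRBV1 with 15 and TRBV15 with 14. Of the TRAV genes, TRAV6D-6 had 10 of 186 chains (5.38% against 3.33%), TRAV7D-2 had 9, TRAV12D-3 had 8, and TRAV12-2, TRAV13-1, TRAV14-3, TRAV5-4 and TRAV6-7-DV9 had 7 each. The share in other cells lay within the interval for TRBV5 and just below it for TRBV3 (6.07 to 15.4). The median TRAJ number was 32, against 34 on the CD8 side and 31 in the Rag1 or Dntt cells.

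The invariant chain of natural killer T cells joins TRAV11 to TRAJ18, and that of mucosal-associated invariant T cells joins TRAV1 to TRAJ33. The former was in 2 of 101 ORFTOC TRA chains and 0 of 85 FTOC chains, the latter in 0 of both. Their junctions are printed because they mark the invariant lineage.
TRAV11-TRAJ18, first cell: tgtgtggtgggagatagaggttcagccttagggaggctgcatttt
TRAV11-TRAJ18, second cell: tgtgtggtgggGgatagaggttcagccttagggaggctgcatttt
The cells had 4 and 11 UMIs of Zbtb16, the factor that directs natural killer T cells, at depths of 29445 and 29593 UMIs. They held 15 of the 16 Zbtb16 UMIs of the group.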

How the data were processed

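The authors processed 5′ gene expression, T-cell receptor and hashtag libraries with Cell Ranger 6.1.2 on build mm10, per their methods, and the submitters' notes also name Seurat 4.2.0. The header of the deposited matrix gives a different Cell Ranger version, and whether the counts depend on it was not tested. The deposited values are unfiltered UMI counts for 32285 genes in 705161 barcodes, and contig lists with UMI counts. Cells had at least 600 genes, 0.4 to 10% mitochondrial UMIs and at least 80% of at least 10 hashtag UMIs from 1 hashtag. This left 5237 ORFTOC and 4112 FTOC cells and took out 896 doublets between pools. Doublets within a pool were kept, and an alternative removed them. Of 4649 contig barcodes, 4119 (88.6%) were such cells. Levels are UMIs summed over cells, per 1000000 UMIs (CPM). Genes with at least 20 UMIs over both groups were compared, and called when at least 2-fold apart. Shares have exact Clopper-Pearson intervals, and ratios have exact intervals from the counts. No p-value was computed, because each pool is 1 sample. Python 3.11.15, numpy 2.4.6, scipy 1.17.1, pandas 2.3.3 and matplotlib 3.10.9 were used, and the comparison was tested on simulated data. The cells and the 22 gene lists were chosen with earlier results of these data known. Named genes were those of the rule, Trac, Trbc1 and Trbc2, the 10 largest and 10 smallest ratios at 100 CPM or more in each comparison, list genes at 100 CPM or more, and the defining genes of lists. Genes outside it were named after their values had been seen. Some genes are not reported here.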

Additional observations from a re-analysis of the deposited data

Results flagged for a closer look

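For 2 genes the difference between mature CD4-side and CD8-side cells had opposite signs in the pools. Krt5, an epithelial keratin, had a log2 ratio of 3.525 in ORFTOC and −3.29 in FTOC. In ORFTOC 247 UMIs of Krt5 lay in 8 CD4-side cells, 87.0% of them in 3 cells. Lyz2, a macrophage lysozyme gene, had log2 ratios of −3.845 in ORFTOC and 1.498 in FTOC, and 90.0% of its 856 CD8-side UMIs lay in 1 cell. The difference between pools was not tested for either gene.

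The unfiltered contig list, which no comparison used, held TRB contigs marked as not productive in 16.96% of the mature CD4-side cells and such TRA contigs in 36.84%. On the CD8 side the shares were 15.3% and 31.7%, and in the Rag1 or Dntt cells 21.9% and 36.6%.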

How the results depend on the processing

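The chosen cells were 171, 82 when at least 2 CD4-side UMIs were asked for, and 31 when every cell was thinned to 1000 UMIs. The ORFTOC share of them was 57.3%, 72.66% with at least 95% of hashtag UMIs from 1 hashtag and 41.94% after thinning. Their share of TRB-positive cells moved from 4.18% to 6.302% with the 95% hashtag limit, 5.128% with at least 1000 genes, 2.004% with at least 2 CD4-side UMIs and 0.7717% after thinning. The 95% limit fell harder on FTOC, where TRB-positive cells had a median hashtag share of 90.1%, against 99.4% in ORFTOC. Of the chosen cells, 88.3% had a TRA chain with contigs of at least 3 UMIs, a limit chosen after seeing the data. Repeated TRB chains in ORFTOC were 38.46% after thinning (13.86 to 68.42), an interval that covers the 27% of the main rule. Genes past 2-fold against other TRB-positive cells numbered 2187, and 5520 after thinning, 3635 with equal weight per cell, 5002 after subtraction of the near-empty droplet profile and 8495 with a minimum of 1 UMI. Against CD8-side cells they numbered 882, 344 with a minimum of 50 UMIs and 1810 with a minimum of 1. Between pools they numbered 752, 168 after thinning, 214 with a minimum of 50 UMIs and 1519 with a minimum of 1. Of these, the higher genes were 65.65% against CD8-side cells, 50.34% with equal weight and 53.4% after subtraction, 47.42% and 81.79% after subtraction against other TRB-positive cells, and 69.28% and 56.22% after subtraction between pools. The log2 ratio of Zbtb16 against other TRB-positive cells was 1.16, −0.6118 with at least 3 maturity UMIs and −0.4864 without the cell holding most of its UMIs. After thinning, that of Il2ra against CD8-side cells was −0.9176, and between pools that of Cd24a was −0.9269 and that of Dapl1 0.3806. Of 1979 values of single genes under 14 settings, 1868 stayed below 2-fold or stayed past it in the same direction, and 106 crossed that limit. A further 5, past 2-fold in the main run, changed sign. Changes of sign that stayed below 2-fold were not counted. Of the 922 cells taken for doublets within a pool, 7 were mature CD4-side cells. No paired analysis was possible because each pool was 1 sample and the pools share no replicate numbers. Small counts limit the genes detected in few cells.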

Other observations

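Cytokines of helper cells were seen in few mature CD4-side cells. Il4 had 17 UMIs in 3 cells and Il13 21 UMIs in 5 cells, all in ORFTOC, and Il2 had 4 UMIs in 4 cells.

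Many of the largest ratios rested on few cells. Of the 20 genes with extreme ratios in each comparison, at least 50% of the UMIs lay in 3 cells for 9 genes against other TRB-positive cells, 13 against CD8-side cells and 20 between pools. Fabp4, a fatty acid binding protein gene, had 1416 UMIs in 2 FTOC cells, 1239 of them in 1 cell. Ctsl, a lysosomal protease gene, had 84.5% of its 1134 ORFTOC UMIs in 1 cell. Akr1c18, a steroid-metabolising enzyme gene, was spread more widely, with 408 UMIs in 21 cells (12.3%).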
